A study of Mus musculus with 3 samples.

Results

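Interferon response genes are the genes that cells switch on after they sense an interferon. The set described here held 39 genes chosen by name, among them the IFIT, OAS and PYHIN families, the immunity-related GTPases, the Isg15 system and the transcription factors above them, with guanylate-binding proteins, chemokines and MHC genes left out. A total of 37 of the 39 had a row among the 32285 genes counted, and the 2 without a row, Mx1 and Mx2, were not analysed here. Single-cell RNA-seq was performed on cells from the flexor digitorum longus (FDL), a flexor tendon of the mouse hind paw, with 1 library per group and 16 tendons pooled in each. The comparisons ask how the genes differ between young control tendons, young tendons depleted of Scleraxis-lineage cells and naturally aged tendons. With 1 library per group there is no replicate error and no p-value was computed, so every comparison below is between libraries.

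The 6 M WT library came from C57BL/6J mice with the genotype Scx-Cre-; DTR F/+, which carry a diphtheria toxin receptor that is not switched on without Cre. The 6 M DTR library came from Scx-Cre+; DTR F/+ mice of the same strain, in which Cre driven by Scleraxis regulatory sequence turns on the receptor in Scleraxis-lineage cells. Both groups received 5 daily hindpaw injections of diphtheria toxin at 3 months, the age given by the labels, and were harvested at 6 months per the study's methods. The 21 M B6 library came from 21-month-old C57/Bl6 mice that received no toxin and are not labelled with either transgene. The 6 M WT tendons were digested for 120 min and those of the other groups for 90 min, so digestion time and group cannot be told apart in any comparison with 6 M WT, whereas 21 M B6 and 6 M DTR shared the shorter digestion. Age, toxin and transgene cannot be told apart either between 21 M B6 and the young libraries.

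Type I and type III interferons act through their receptors on a complex that holds Stat2 and Irf9 and binds the interferon-stimulated response element, and interferon gamma acts on the gamma-activated sequence and through Irf1. The induced genes include sensors and binders of foreign RNA, enzymes that block viral replication, GTPases that attack the vacuoles of intracellular microbes and PYHIN proteins that bind DNA. They are known from virus infection, but many are also kept at a low level by small amounts of interferon in healthy tissue.

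Values listed 3 at a time give 6 M WT first, then 6 M DTR and last 21 M B6. Cells that passed the filter numbered 8357, 6554 and 4798, and their median depth was 13008, 12328 and 12914 UMIs (unique molecular identifiers, one per captured mRNA molecule) per cell. Cells were put into classes by marker genes, so the presence of a class's markers follows from that choice and is only a description. Some listed markers were found in a minority of cells. Mkx was in 44.4%, 49.4% and 41.2% of tenocytes and Selp in 21.2%, 31.4% and 14.4% of endothelial cells. Pi16 was in 31.6%, 29.9% and 55.3% of epitenon cells. Other markers were nearly always found. Comp was found in at least 99.7% of tenocytes in each library, Igfbp6 in at least 99.6% of epitenon cells, C1qa in at least 97.4% of macrophages and Cdh5 in at least 95.7% of endothelial cells. By Xist and Y-linked transcripts 5104, 2145 and 2164 of the cells were female and 1991, 3101 and 1711 male. The 21 M B6 library stood apart in cell quality: 56.5% of its barcodes exceeded the limit of 10% mitochondrial counts, against 27.6% and 43.1% in the young libraries, and heat shock genes summed to 6116 CPM (UMIs of a gene or list scaled to a common total per library) in its kept cells against 1855 and 1869 CPM. Between 61 and 76 barcodes were shared by each pair of libraries, of which 13 to 15 were kept cells.

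Promoters of 30 of the 39 members were found in the RefSeq annotation of GRCm38.p6, as windows of 300 bases from 250 before to 50 after a transcript start. The core of the interferon-stimulated response element, 2 copies of GAAA with 2 bases of any kind between them, was searched on both strands (TTTC on the other strand, overlapping matches counted) and was present in 18 of 38 member windows (47.4%), which belong to 17 members, against 1131 of 32851 windows of all genes (3.44%). The gamma-activated sequence, TTC and GAA with 3 bases between them, which reads the same on both strands, was present in 9 of 38 member windows (23.7%) against 8.3% of all windows. A match is only a description of the letters, not a site shown to be bound. The windows that follow belong to members on which the results turn, 4 with the response element and Irf1 with the gamma-activated sequence, with the matches in capitals.
Ifit1 promoter, chr19:34640639-34640938, plus strand: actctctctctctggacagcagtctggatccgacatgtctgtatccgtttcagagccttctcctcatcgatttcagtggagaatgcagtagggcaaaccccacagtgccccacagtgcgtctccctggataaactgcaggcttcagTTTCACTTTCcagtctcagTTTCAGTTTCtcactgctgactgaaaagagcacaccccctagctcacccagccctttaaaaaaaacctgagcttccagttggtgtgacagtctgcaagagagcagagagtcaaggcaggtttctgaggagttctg
Isg15 promoter, chr4:156200769-156201068, minus strand: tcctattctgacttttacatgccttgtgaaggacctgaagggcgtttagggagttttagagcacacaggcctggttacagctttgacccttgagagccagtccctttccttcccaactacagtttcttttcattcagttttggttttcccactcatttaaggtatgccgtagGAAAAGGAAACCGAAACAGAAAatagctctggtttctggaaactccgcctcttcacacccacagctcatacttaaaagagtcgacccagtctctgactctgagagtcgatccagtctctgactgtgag
Rsad2 promoter, chr12:26456403-26456702, minus strand: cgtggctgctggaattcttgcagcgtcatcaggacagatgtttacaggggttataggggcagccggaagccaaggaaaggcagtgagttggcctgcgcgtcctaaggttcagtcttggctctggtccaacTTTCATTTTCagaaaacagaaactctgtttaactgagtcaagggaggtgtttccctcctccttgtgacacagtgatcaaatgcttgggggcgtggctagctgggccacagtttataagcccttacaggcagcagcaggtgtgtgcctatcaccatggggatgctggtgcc
Irgm1 promoter, chr11:48871371-48871670, minus strand: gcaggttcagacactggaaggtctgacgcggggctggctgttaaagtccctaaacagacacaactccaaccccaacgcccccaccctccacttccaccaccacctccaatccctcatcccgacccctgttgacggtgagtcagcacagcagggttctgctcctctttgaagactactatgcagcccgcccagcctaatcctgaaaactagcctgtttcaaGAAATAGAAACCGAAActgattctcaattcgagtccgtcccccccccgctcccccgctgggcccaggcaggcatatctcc
Irf1 promoter, chr11:53769764-53770063, plus strand: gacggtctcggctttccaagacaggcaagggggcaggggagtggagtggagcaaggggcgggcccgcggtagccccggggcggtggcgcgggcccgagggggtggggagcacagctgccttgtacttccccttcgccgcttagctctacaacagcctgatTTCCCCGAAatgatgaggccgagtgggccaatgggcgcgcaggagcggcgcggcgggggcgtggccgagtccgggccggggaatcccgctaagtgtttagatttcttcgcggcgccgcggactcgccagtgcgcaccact
Ifit1 held 2 separate matches, Isg15 a run of 3 that overlap, Irgm1 2 that overlap and Rsad2 1, and this window of Irf1 held 1 match to the gamma-activated sequence.

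Over all kept cells the 37 genes summed to 925, 817 and 2081 CPM. In CPM, tendon endothelial cells carried the most of this set in each library (2998, 2578 and 6855 CPM), followed by mural cells (1861, 1707 and 2889 CPM) in the young libraries, while tenocytes (812, 661 and 1789 CPM), epitenon cells (981, 709 and 1964 CPM) and macrophages (986, 1035 and 1420 CPM) lay lower. Muscle satellite cells (238, 431 and 747 CPM) had the lowest sum in the young libraries, and T or NK cells (509, 583 and 579 CPM) in 21 M B6. Schwann cells (805, 1539 and 2896 CPM) came next to endothelial cells in 21 M B6. The 21 M B6 value was the highest in each of these classes except T or NK cells. The 6 M DTR value was below that of 6 M WT in tenocytes, epitenon, endothelial and mural cells. It was above that of 6 M WT in macrophages and in T or NK, satellite and Schwann cells. A sum follows its largest genes. In mural cells 9 of 28 members at 5 CPM or more were at least 2-fold higher in 6 M DTR and 0 lower. Of all 10158 genes at that level, 878 were higher and 498 lower, and the median ratio was 1.23 against 1.05. Of the 9, Ifit1, Ifit3, Oasl2, Rsad2 and Ifi205 were under 5 CPM in 6 M WT.

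**Figure D1:**
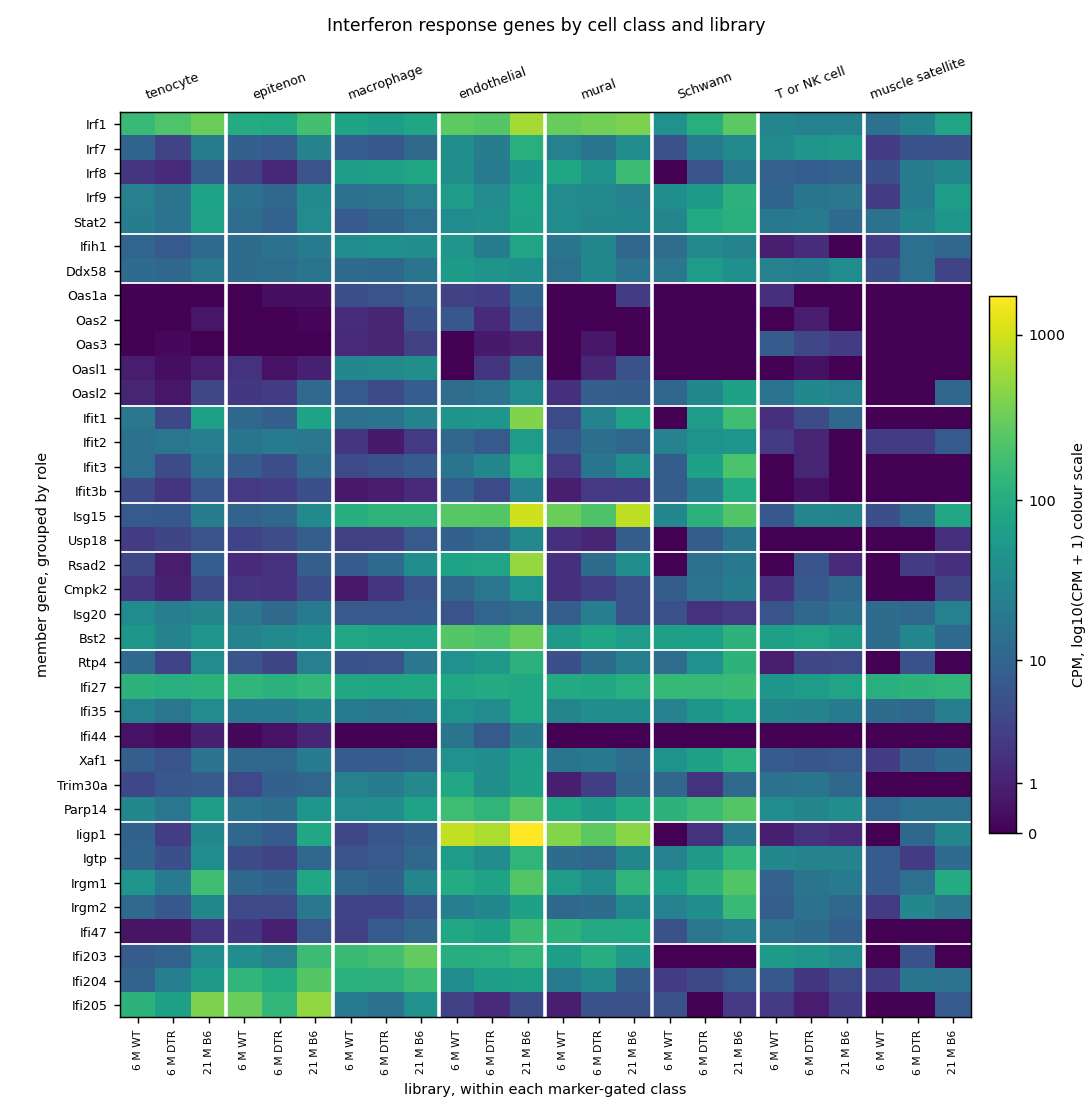
Level of the 37 interferon response genes (rows, grouped by role) in 8 cell classes, with the 3 libraries side by side in each class. Colour gives log10 of CPM plus 1. Endothelial and mural columns are filled for most roles, and Ifi205 and Ifi204 stand out in epitenon cells. Most OAS rows are close to empty in tenocytes, epitenon cells and satellite cells. Oasl2 reaches 11.7 CPM in epitenon cells and 10.8 CPM in satellite cells of 21 M B6.

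Individual members had preferred classes, and these differed from gene to gene. Iigp1, a GTPase that acts on pathogen vacuoles, reached 874, 691 and 1710.1 CPM in endothelial cells and 431, 264 and 457 CPM in mural cells, against 9.20, 2.84 and 31.2 CPM in tenocytes. Ifi205, a PYHIN family member, was highest in epitenon cells in all 3 libraries (315, 139 and 514 CPM) and reached only 3.28, 1.46 and 4.40 CPM in endothelial cells. Ifi203 of the same family was highest in macrophages in all 3 libraries (160, 182 and 282 CPM), as was Oasl1 (30.8, 33.8 and 38.5 CPM). Isg20, an RNA exonuclease, was highest in tenocytes in all 3 libraries (35.9, 23.2 and 29.0 CPM). The PYHIN genes are close copies of one another, and 39.6% of the 50-base words at the 3′ end of Ifi205 transcripts also occur in Ifi211 or Mndal, so how its reads were shared among them is uncertain, as it is for Oas1a (56.1% shared with Oas1g), Trim30a (19.9%, Trim30d) and Ifit3 (14.9%, Ifit3b).

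Tenocytes, the collagen-making cells of the tendon body, numbered 4810, 2640 and 758 in the 3 libraries. In 21 M B6 tenocytes, the immunity-related GTPases, the PYHIN genes and the transcription factors were all higher than in 6 M WT, whereas the RNA sensors, Ifi27, Bst2 and Isg20 lay within 2-fold. Of the 29 members that reached 5 CPM in at least 1 of both libraries, 17 were at least 2-fold higher and 0 at least 2-fold lower in 21 M B6, where 3.61% and 3.88% of all genes at that level were. The median ratio over these 29 was 2.16 against 0.821 over all genes. Some of the 29 entered through 21 M B6 alone, among them Irf8 (2.14 CPM in 6 M WT, 8.41 in 21 M B6). The remaining 8 members, among them all of the OAS family, stayed under 5 CPM in both.

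Irf1, the activator downstream of interferon gamma, stood at 148, 219 and 320 CPM, a ratio of 2.16 between 21 M B6 and 6 M WT (95% interval 2.07 to 2.25). Here and below the intervals are exact for the UMIs counted and cover counting error only. Stat2 stood at 21.6, 16.0 and 72.9 CPM (ratio 3.38, 3.07 to 3.71) and its partner Irf9 at 24.7, 16.6 and 73.6 CPM (2.99, 2.72 to 3.27). All 5 transcription factors and signal transducers were past 2-fold in 21 M B6, of which Irf8 reached 5 CPM in that library alone. Irf1, however, was at 1.68 in female cells, 1.94 at the limit of 5% mitochondrial counts and 1.94 on thinned sums. Irf7 was at 1.91 on thinned sums. Irf7, which drives interferon alpha genes, had 9.95, 3.59 and 22.8 CPM (2.29, 1.94 to 2.68).

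The 4 immunity-related GTPases above 5 CPM were past 2-fold, although on sums over cells thinned to 2000 UMIs Iigp1 was at 1.47 and Igtp at 1.89. Irgm1, a regulator of the family that sits on the cell's own membranes, stood at 47.0, 20.3 and 172 CPM (ratio to 6 M WT 3.65, 3.43 to 3.88). Iigp1 had 9.20, 2.84 and 31.2 CPM (3.39), Igtp 9.95, 5.21 and 36.3 CPM (3.65) and Irgm2 11.8, 6.72 and 29.9 CPM (2.54). In each of these, 6 M DTR was the lowest library and 21 M B6 the highest.

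The PYHIN genes did not share 1 order of the libraries. Ifi204 stood at 9.69, 24.1 and 55.9 CPM (ratios to 6 M WT 2.49, 2.24 to 2.77, and 5.77, 5.12 to 6.50). Ifi205 stood at 124, 68.8 and 389 CPM (0.557 and 3.15), and Ifi203 at 7.77, 9.76 and 36.2 CPM (1.26 and 4.66).

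Among the classical antiviral genes, Ifit1, which binds RNA that lacks a host cap, stood at 18.0, 4.05 and 66.1 CPM (ratio of 21 M B6 to 6 M WT 3.67, 3.31 to 4.05). Isg15, a ubiquitin-like modifier, had 7.12, 6.72 and 22.0 CPM (3.09) and Rtp4, a chaperone induced by interferon, 12.6, 3.44 and 35.8 CPM (2.84). Not all relatives followed, since Ifit2 stood at 15.7, 17.4 and 22.9 CPM and Ifit3 at 14.2, 4.60 and 16.5 CPM, so that 1 of the 4 IFIT genes was past 2-fold. Ifi27, a mitochondrial protein and with Irf1 and Ifi205 among the 3 members with the most UMIs in 6 M WT, stood at 124, 105 and 117 CPM.

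Against 6 M DTR, which shared its digestion time, the 21 M B6 tenocytes had 19 of 29 members at least 2-fold higher and 0 lower, where 4.27% and 9.75% of all genes were, and the median ratio was 3.54 against 0.782. The ratio was 16.3 for Ifit1 (13.5 to 19.8), 11.0 for Iigp1 (8.69 to 14.0), 10.4 for Rtp4 and 8.46 for Irgm1. Ifit1, Iigp1 and Rtp4 were under 5 CPM in 6 M DTR, so they entered this comparison through 21 M B6 alone. Median mitochondrial counts of 21 M B6 tenocytes were 5.63% against 2.83% and 2.89%, heat shock genes summed to 5317 CPM against 1536 and 1350.1 CPM, and immediate early genes to 10479 CPM against 4903 and 8059 CPM, and their part in the result was not tested. Among marker genes of other classes in tenocytes, endothelial ones summed to 8.37, 13.8 and 18.0 CPM and muscle satellite ones to 28.3, 25.9 and 82.2 CPM, both highest in 21 M B6, while macrophage markers were at 27.2, 44.8 and 34.4 CPM and mural markers at 527, 801 and 274 CPM. Their part in the result was not tested either.

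**Figure D2:**
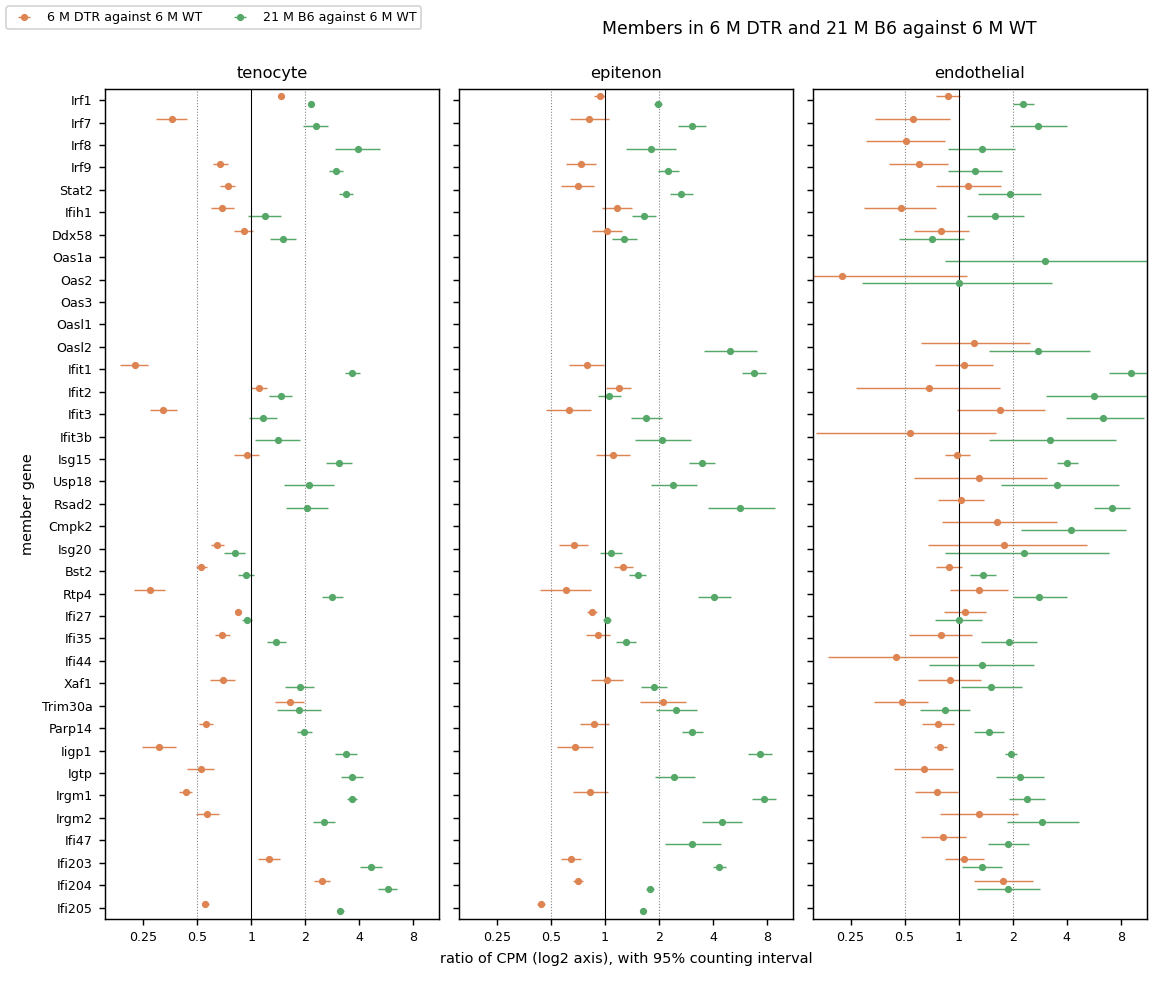
Ratio of each member's CPM to 6 M WT on a log axis in tenocytes, epitenon cells and endothelial cells, with its exact 95% counting interval. Orange is 6 M DTR and green 21 M B6, and dotted lines mark 2-fold. In tenocytes and epitenon cells the green points of the transcription factors, GTPases and PYHIN genes lie right of the orange ones.

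Depleted tendons differed from 6 M WT in the other direction in tenocytes. Of 25 members at 5 CPM or more, 6 were at least 2-fold lower and 1 at least 2-fold higher in 6 M DTR, where 1.76% and 3.19% of all genes were, with a median ratio of 0.672 against 1.04. Irgm1 (ratio 0.432, 0.397 to 0.469) was the 1 of the 6 above 20 CPM. The other 5, named after their values were seen, were Ifit1 (0.225, 0.187 to 0.268), Rtp4 (0.274), Iigp1 (0.308), Ifit3 (0.325) and Irf7 (0.361). All 5 were under 5 CPM in 6 M DTR, so they entered through 6 M WT alone. Ifi204 was the gene past 2-fold upwards. Part of this difference sat in few cells. Without the interferon-high cells defined below (27 in 6 M WT and 2 in 6 M DTR), a step added after the data were seen, the ratio was 0.768 for Ifit1, 0.635 for Ifit3 and 0.561 for Iigp1, which left 3 members past 2-fold, Irf7 at 0.431, Rtp4 at 0.324 and Irgm1 at 0.471. Ifit1, Ifit3, Irf7 and Rtp4 are among the genes that chose these cells, so their move towards 1 is only a description. Iigp1 and Irgm1 are not among those genes.

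Epitenon cells, the fibroblast-like cells of the tendon's outer sheath, numbered 1066, 1075 and 2371 in the 3 libraries. All 5 immunity-related GTPases, both genes of the Isg15 system and 3 of the 5 transcription factors were past 2-fold in 21 M B6 against 6 M WT, and neither RNA sensor was. Of 31 members at 5 CPM or more, 18 were at least 2-fold higher and 0 lower in 21 M B6, where 1.69% and 2.14% of all genes were, and the median ratio was 2.41 against 0.829. A member counted once 1 of both libraries reached 5 CPM, so some entered through 21 M B6 alone. Of the GTPases these were Igtp (4.56 CPM in 6 M WT, 11.1 in 21 M B6), Irgm2 (4.20, 18.8) and Ifi47 (2.31, 7.05). Others were Usp18 (3.53, 8.50), Rsad2 (1.52, 8.61), Oasl2 (2.37, 11.7), Trim30a (4.20, 10.4) and Ifit3b (2.43, 5.09). Irf8 (3.16, 5.69) entered the same way but was not past 2-fold. Against 6 M DTR the count was 20 of 31 higher and 0 lower (3.45% and 2.55% of all genes), with a median ratio of 3.07 against 0.827. Here too some entered through 21 M B6 alone, among them Rtp4 (3.73 CPM in 6 M DTR, 24.9 in 21 M B6).

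Irgm1 stood at 10.9, 9.08 and 83.9 CPM (ratio to 6 M WT 7.66, 6.59 to 8.96), and Iigp1 at 11.4, 7.76 and 82.8 CPM (7.29, 6.28 to 8.49). Ifit1 had 10.9, 8.66 and 74.0 CPM (6.76, 5.81 to 7.90). In these 3 genes both young libraries lay close together, far below 21 M B6. Ifi203 stood at 37.6, 24.3 and 163 CPM (4.35), Rtp4 at 6.14, 3.73 and 24.9 CPM (4.06), Isg15 at 9.67, 10.8 and 33.6 CPM (3.48) and Parp14, an ADP-ribosyltransferase, at 15.8, 13.8 and 48.4 CPM (3.06). The factors Irf7 (8.88, 7.27 and 27.2 CPM, 3.06), Stat2 (13.1, 9.26 and 35.0 CPM, 2.66) and Irf9 (15.3, 11.2 and 34.5 CPM, 2.25) were past 2-fold as well.

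The members with the most UMIs in epitenon cells were Ifi205, Ifi204 and either Ifi27 (134, 114 and 138 CPM) or, in 21 M B6, Irf1, and none of them was past 2-fold in 21 M B6 against 6 M WT. Ifi204 stood at 135, 95.2 and 240 CPM (ratio of 21 M B6 to 6 M WT 1.78) and Irf1 at 97.2, 91.1 and 192 CPM (1.97). Ifi205 at 315, 139 and 514 CPM was 1.63 times the 6 M WT level in 21 M B6, while in 6 M DTR it was 0.441 times that level (0.419 to 0.463), the 1 member at least 2-fold lower. By sex this ratio was 0.256 in female and 0.818 in male cells, and 9 members were at least 2-fold lower in female cells and 1 in male cells. The share of all genes past 2-fold was not computed by sex. Trim30a, 4.20, 8.84 and 10.4 CPM, was the 1 member at least 2-fold higher in 6 M DTR (2.11, 1.57 to 2.85), with a ratio of 1.38 in female and 4.61 in male cells. Of all genes in this comparison 0.625% were at least 2-fold higher and 1.88% lower, and the median ratio of the 23 members at 5 CPM or more was 0.829 against 0.995. Scaling by TMM (trimmed mean of M-values) in place of totals moved the median log2 ratio of all genes between 21 M B6 and 6 M WT from -0.27 to 0.04 in epitenon cells and from -0.29 to -0.04 in tenocytes, with 26 and 20 members then at least 2-fold higher. Mitochondrial counts (median 4.48% against 2.61% and 2.55%), heat shock genes (6465 CPM against 2119 and 2030.2 CPM) and immediate early genes (12327 CPM against 7263 and 7577 CPM) were again highest in 21 M B6, and their part in the result was not tested. The mix of epitenon markers differed too. Pi16 was in 31.6%, 29.9% and 55.3% of the cells, Efemp1 in 54.1%, 53.3% and 78.7% and Krtdap in 48.2%, 28.2% and 40.5%. Dpp4 was in 41.8%, 43.5% and 41.1%. The part of this mix in the result was not tested either.

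Endothelial cells were few (137, 140 and 90) but carried the highest levels of many members. The IFIT genes, Isg15 and Usp18, the protease that removes Isg15 from proteins and damps interferon signalling, were all past 2-fold in 21 M B6. Of 35 members at 5 CPM or more, 18 were at least 2-fold higher and 0 lower than in 6 M WT, where 8.24% and 9.57% of all genes were, with a median ratio of 2.19 against 0.884. Of the 18, Oas1a (3.28 CPM in 6 M WT, 9.90 in 21 M B6) and Oasl1 (0, 9.90) reached 5 CPM in 21 M B6 alone. Against 6 M DTR the count was 25 of 35 higher and 0 lower (8.62% and 8.59% of all genes), with a median ratio of 2.57 against 0.923. Of the 25, Oas1a, Oas2, Oasl1 and Ifit3b were under 5 CPM in 6 M DTR and entered through 21 M B6 alone.

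Ifit1 stood at 45.9, 49.0 and 421 CPM (ratio to 6 M WT 9.17, 6.92 to 12.4). Rsad2, which encodes viperin, an enzyme that makes a chain-ending nucleotide, had 73.8, 76.0 and 526 CPM (7.12, 5.68 to 9.03), and its neighbour in the genome Cmpk2, a mitochondrial nucleotide kinase, 10.7, 17.5 and 45.1 CPM (4.23). Isg15 stood at 246, 241 and 990 CPM (4.02, 3.53 to 4.60). For these genes the young libraries were within 2-fold of each other. The other IFIT genes followed Ifit1, with Ifit2 at 10.7, 7.31 and 60.5 CPM (5.68), Ifit3 at 17.2, 29.2 and 110 CPM (6.39) and Ifit3b at 8.20, 4.39 and 26.4 CPM (3.22). Usp18 stood at 9.02, 11.7 and 31.9 CPM (3.54), Oasl2 at 13.1, 16.1 and 36.3 CPM (2.77) and Rtp4 at 41.8, 54.1 and 118 CPM (2.81).

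Regulators and GTPases had smaller ratios than the IFIT genes in this class. Irf1 stood at 272, 237 and 622 CPM (ratio of 21 M B6 to 6 M WT 2.29), Irf7 at 39.4, 21.9 and 109 CPM (2.77), Irgm2 at 23.8, 30.7 and 69.3 CPM (2.91), Irgm1 at 97.6, 73.8 and 233 CPM (2.39) and Igtp at 58.2, 37.3 and 128 CPM (2.19). Iigp1, with Irf1 and Isg15 among the 3 members with the most UMIs, was at 874, 691 and 1710.1 CPM (1.96, 1.81 to 2.12). Compared with 6 M WT, 6 M DTR had 0 of 33 members at least 2-fold higher and 4 lower, beside 4.79% and 4.94% of all genes, and a median ratio of 0.872 against 0.955. They were Ifih1, a sensor of double-stranded RNA (47.6 and 22.7 CPM, ratio 0.476, 0.298 to 0.749), Trim30a (83.7 and 40.2 CPM, 0.480, 0.340 to 0.673) and, on few UMIs, Ifi44 (20 and 10) and Oas2 (8 and 2).

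The endothelial counts depended on which cells were included. With cells limited to 5% mitochondrial counts, which kept 15 of the 90 cells of 21 M B6, 8 of 33 members were at least 2-fold higher than in 6 M WT. Ifit2 was at 0.857 times its 6 M WT level, Ifit1 at 3.77, Isg15 at 1.83 and Rsad2 at 2.38. Without the interferon-high cells 7 of 32 members were at least 2-fold higher. The share of all genes past 2-fold was computed for neither set of cells. Without the high cells the ratios were 2.07 for Ifit1, 1.93 for Isg15 and 2.49 for Rsad2. These genes are among those that chose the cells left out, so their lower ratios are only a description. Median mitochondrial counts were 7.01% in 21 M B6 against 4.04% and 4.15%, heat shock genes summed to 6799.7 CPM against 2699 and 2409 CPM, and mural marker genes to 746 CPM against 235 and 311 CPM, and their part in the result was not tested.

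Macrophages numbered 533, 1077 and 469 in the 3 libraries. The young libraries were compared first. Of 29 at 5 CPM or more, 1 was at least 2-fold higher and 0 lower in 6 M DTR (1.34% and 1.29% of all genes), with a median ratio of 1.07 against 0.984. That gene was Ifi47, a GTPase, at 3.17 and 7.34 CPM (2.32, 1.52 to 3.64). Split by sex, 4 of 30 members were at least 2-fold higher in female and 6 of 28 in male cells. The share of all genes past 2-fold was not computed for these smaller sums, so these counts have no background beside them. Against 6 M WT, 21 M B6 had 10 of 33 higher and 0 lower (4.16% and 3.22% of all genes), median ratio 1.71 against 0.951, and against 6 M DTR 7 of 33 higher and 0 lower (4.56% and 3.2%), median ratio 1.47 against 0.956. Of the 10, Cmpk2 (0.679 CPM in 6 M WT, 6.05 in 21 M B6) and Ifi47 (3.17, 10.8) reached 5 CPM in 21 M B6 alone. So did Oas2 (1.59, 5.61), Usp18 (3.06, 7.09) and Iigp1 (3.96, 8.71). Oas1a, Ifit3 and Irgm2 entered the same way but stayed within 2-fold. Of the 7 higher than in 6 M DTR, Cmpk2 (2.20 CPM in 6 M DTR), Oas2 (1.20) and Usp18 (3.20) entered through 21 M B6 alone.

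Rsad2 showed the widest gap among the macrophage members at 20 CPM or more, with 7.70, 12.5 and 38.0 CPM (ratio of 21 M B6 to 6 M WT 4.93, 3.76 to 6.54). The gap of Cmpk2, below that level, was wider on few UMIs (6 in 6 M WT and 41 in 21 M B6). Irgm1 stood at 11.2, 9.21 and 28.5 CPM (2.54), Ifi205 at 19.6, 15.1 and 42.8 CPM (2.19, with 0.797 in male cells alone) and Parp14 at 35.3, 37.8 and 72.2 CPM (2.04). The members with the most UMIs, Ifi203 (160, 182 and 282 CPM), Ifi204 (116, 117 and 166 CPM) and Isg15 (102, 128 and 127 CPM), were within 2-fold in every pair. Heat shock genes were at 6507 CPM in 21 M B6 macrophages against 3407 and 2893 CPM, and immediate early genes at 5704 CPM against 6478 and 7267 CPM. Their part in the result was not tested.

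T or NK cells, 115, 302 and 68 in number, differed little in the sum of the members. Of 24 members at 5 CPM or more, 3 were at least 2-fold higher and 1 lower in 6 M DTR (5.27% and 3.1% of all genes), median ratio 1.09 against 1.02, and of 24 in 21 M B6 against 6 M WT 5 were higher and 1 lower (5.02% and 13% of all genes), median ratio 1.04 against 0.833. Under 5 CPM in 6 M WT were, of the 3, Cmpk2 (1.70 CPM) and Rsad2 (0 CPM) and, of the 5, Cmpk2 and Ifit1 (1.70 CPM). Isg15 was at 8, 73 and 19 UMIs (6.78, 28.7 and 26.6 CPM), which made ratios to 6 M WT of 4.24 (2.04 to 10.2) and 3.92 (1.64 to 10.3). The second of these was 1.56 at the limit of 5% mitochondrial counts and 1.0 both in male cells and on thinned sums, and the first was 1.83 in male cells. Irgm1 was at 9.32, 16.5 and 21.0 CPM, and the interval of its ratio in 21 M B6 included 1 (2.25, 0.966 to 5.42). Bst2 (tetherin, which holds budding virus at the membrane), Ifi203 and Ifi27 had the most UMIs in 6 M WT and stayed within 2-fold of it.

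The smaller classes are given mainly as levels. Schwann cells, the glia of tendon nerves, numbered 64, 82 and 47, and had Ifit1 at 0, 29 and 72 UMIs, Ifit3 at 3, 35 and 86 UMIs and Isg15 at 12, 59 and 92 UMIs. On the CPM scale Isg15 was at 31.6, 119 and 224 CPM. Ifi203, Ifi44 and 4 of the 5 OAS genes had no UMI in Schwann cells of any library. Mural cells, 141, 191 and 42 in number and with endothelial markers at 64.1, 67.3 and 248 CPM, had Isg15 at 322, 215 and 842 CPM and Irf8, best known as a myeloid factor, at 82.0, 44.9 and 164 CPM, against 63.4, 70.9 and 78.1 CPM in macrophages. Muscle satellite cells, 34, 45 and 57 in number, had 0 UMIs of Ifit1, Ifit3 and Ifit3b in every library.

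The members were next counted cell by cell, to see how their UMIs were spread over cells. Each cell was thinned to 2000 UMIs and called interferon-high when at least 4 of 19 core members were detected. The core members were Irf7, Ifih1, Ddx58, Isg15, Usp18, Rsad2, Cmpk2, Rtp4, Ifi44, Xaf1 and the OAS and IFIT genes. Being high is a range of this count and not a cell type, and 48, 39 and 93 cells with 3 and 24, 16 and 51 cells with 4 core members lay beside the limit. Over all kept cells, mixed and unassigned ones included, 68 of 8348 (0.815%, 95% Clopper-Pearson interval 0.633 to 1.03), 33 of 6549 (0.504%, 0.347 to 0.707) and 142 of 4797 cells (2.96%, 2.50 to 3.48) were high. The share in 21 M B6 lay above both young libraries, and 49 of its 142 high cells were mixed or unassigned. On counts as deposited the shares were 4.56%, 3.71% and 14.4%.

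**Figure D3:**
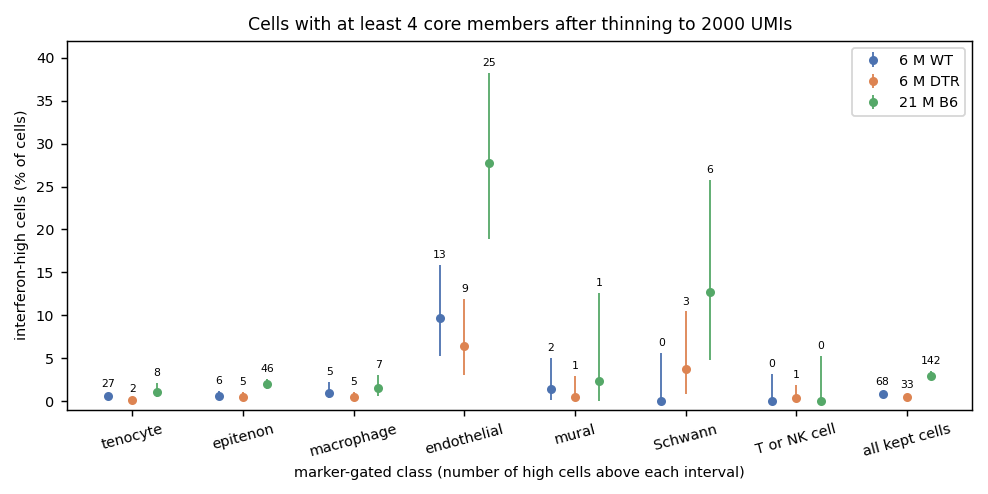
Percent of cells called interferon-high by class and library, with exact 95% binomial intervals and the number of high cells above each point. Endothelial cells lie highest in each library, at 9.63%, 6.43% and 27.8%, and the 21 M B6 intervals are wide where classes are small.

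Endothelial cells held the largest share in each library, with 13 of 135 (9.63%, 5.23 to 15.9), 9 of 140 (6.43%, 2.98 to 11.9) and 25 of 90 cells (27.8%, 18.9 to 38.2). These intervals count cells of 1 library each and say nothing of the spread between animals. At the limit of 5% mitochondrial counts 15 cells of 21 M B6 remained, of which 3 were high. In epitenon cells 6 of 1062 (0.565%, 0.208 to 1.23), 5 of 1073 (0.466%, 0.151 to 1.08) and 46 of 2371 (1.94%, 1.42 to 2.58) were high. The share was highest in 21 M B6 here too.

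Among tenocytes 27 of 4810 (0.561%, 0.370 to 0.816), 2 of 2640 (0.0758%, 0.00918 to 0.273) and 8 of 757 (1.06%, 0.457 to 2.07) were high. The share was lowest in 6 M DTR and highest in 21 M B6. Macrophage shares were 0.938%, 0.465% and 1.49% on 5, 5 and 7 high cells. Schwann cells had 0 of 64, 3 of 81 and 6 of 47 (12.8%, 4.83 to 25.7), where 0 of 64 allows a share of up to 4.69% (taken as 3 cells of the total). No satellite cell was high, which by the same measure allows up to 8.82%, 6.67% and 5.26%. At least 1 core member was detected in 5.88%, 13.3% and 21.1% of satellite cells, which had no UMI of Ifit1 but did hold Isg15 (2, 4 and 47 UMIs), against 13.5%, 11.6% and 24.4% of tenocytes and 57.8%, 40.0% and 73.3% of endothelial cells after the same thinning. Before it, median depth was 10762.5, 8004 and 9476 UMIs in satellite cells, 12957, 12258 and 10946.5 in tenocytes and 8003, 8490.5 and 8028 in endothelial cells. No class without core members was found, so the part of free RNA in these shares was not tested.

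How much of the core signal the high cells held differed by class. The core members chose these cells, so the shares held and the values without the high cells are only a description. Among 21 M B6 endothelial cells the 25 high cells held 77.2% of the core UMIs, and the core level was 2706 CPM with them and 839 CPM without. The median of mural markers was 418 CPM in these 25 cells and 0 CPM in the other 65, with any mural marker in 64.0% and 49.2%, and their part in the result was not tested. The core level with and without high cells was 689.9 and 492 CPM in 6 M WT and, for 6 M DTR, 649.8 and 386 CPM. The high cells among epitenon cells of 21 M B6 held 31.7%, and the level without them was 202 CPM, against 95.6 and 85.4 CPM in the young libraries. Tenocytes without high cells stood at 88.5, 72.6 and 194 CPM, with 29.6%, 0.988% and 27.2% of core UMIs in the high cells. In Schwann cells the 3 high cells of 6 M DTR held 49.7% and the 6 of 21 M B6 held 68.1%. The Schwann core level was 187, 609 and 1217 CPM with high cells and 187, 316 and 470 CPM without. Without the high cells 16 epitenon and 17 tenocyte members were past 2-fold in 21 M B6 against 6 M WT, beside 18 and 17 with them, and 7 endothelial members were, beside 18.

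**Figure D4:**
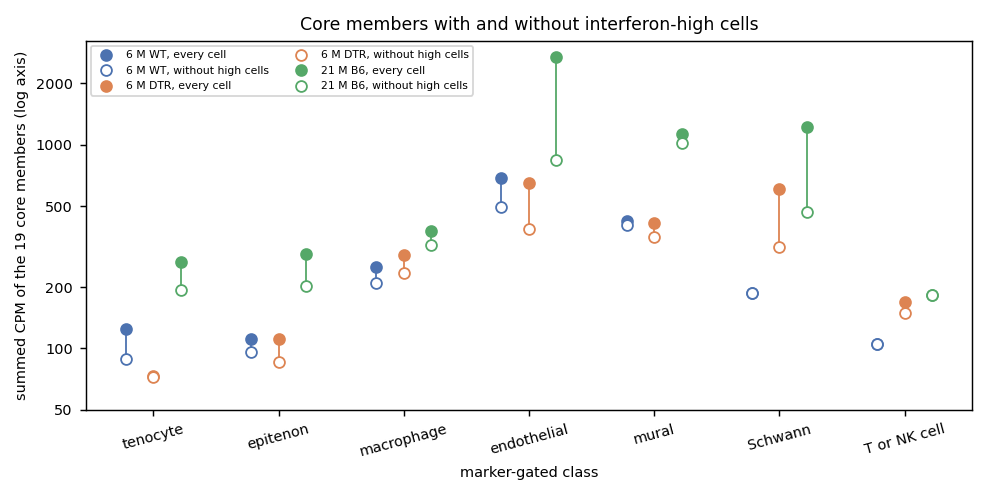
Summed CPM of the 19 core members on a log axis by class and library, with the interferon-high cells (filled) and without them (open). In 21 M B6 endothelial cells the value is 2706 CPM with and 839 CPM without them, while in tenocytes and epitenon cells of 21 M B6 the open symbols stay above those of the young libraries.

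Ifit1 and Isg15 were the core members found most often in high cells. Of the 142 high cells of 21 M B6, thinned, 113 had Ifit1, 109 Isg15, 80 Rsad2, 68 Irf7 and 66 Rtp4. In 6 M WT 45 of 68 had Ifit1 and 38 Isg15, and in 6 M DTR 26 of 33 had Isg15 and 21 Ifit1. These genes chose the cells, so the numbers are a description. High cells did not differ much in depth or quality, with medians of 11409, 12741 and 13174 UMIs against 13020, 12331.5 and 12911 in the other cells, and 3.13%, 3.26% and 5.31% mitochondrial counts against 2.83%, 2.99% and 5.08%. Cells with markers of more than 1 class or of none made up 22.1%, 21.2% and 34.5% of the high cells against 17.0%, 15.1% and 18.0% of the others. No doublet caller was run, and the part of doublets in the result was not tested.

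Genes outside the 39 members, which did not choose the cells, describe the state further. They were ranked by the ratio of CPM between high and other cells of the same class and library, where at least 20 cells were high. The same ratio chose the leading genes, so their ratios and intervals lean upwards and are only a description. The intervals count UMIs as independent, and the spread of a gene's UMIs over the high cells was not tested. Among the leading 10 in 6 M WT tenocytes (27 high cells) were Gbp7, a guanylate-binding protein (26 UMIs in high and 152 in other cells, ratio 30.3, 19.2 to 46.1), Cd274, the checkpoint ligand PD-L1 (8 and 37 UMIs, 38.3, 15.4 to 83.6), and Mndal, a further PYHIN gene (8 and 22 UMIs, 64.4). Asb4 (9 and 9 UMIs, 177, 62.3 to 504) and the cartilage matrix gene Epyc (7 and 21 UMIs, 59.0) were there too. The other 5 were Ly86, F830016B08Rik, Apol9b, Slfn9 and Ifi27l2a, each with 7 or fewer UMIs in the high cells.

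Among epitenon cells of 21 M B6 (46 high cells) the leading 10 held Gbp2 (84 and 350 UMIs, ratio 12.1, 9.44 to 15.4), Rnf213, a large ubiquitin ligase (40 and 168 UMIs, 12.0, 8.30 to 17.1), and Phf11d (22 and 109 UMIs, 10.2). Serpina3f, F830016B08Rik, Ddx60, Zbp1, Slfn8, Gbp3 and Cxcl9 made up the rest, with 5 to 8 UMIs in the high cells. For its endothelial cells (25 high cells), Socs1, the feedback inhibitor of interferon receptors (13 and 1 UMIs), and Cxcl10, an interferon-induced chemokine (19 and 3 UMIs, 16.5, 4.85 to 86.9), led with Etv6 (7 and 1), and the other 7 had 5 or 6 UMIs against 1, too few for an order. With counts as deposited, an alternative added after the data were seen, the Socs1 ratio was 2.58, while Cxcl10 was at 24.6, Gbp2 at 10.4, Rnf213 at 11.2 and Gbp7 at 30.2.

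The pathway above the members was read from a list of interferon ligands, receptors, kinases, inhibitors and sensors, of which 35 had a row. Its genes lay on both sides. In 21 M B6 against 6 M WT 3 were at least 2-fold higher and 2 lower of 21 at 5 CPM or more in tenocytes, 1 and 0 of 20 in epitenon cells, 0 and 1 of 25 in macrophages, 3 and 3 of 21 in endothelial cells and 1 and 1 of 23 in T or NK cells. In 6 M DTR against 6 M WT the counts were 0 and 1 of 21, 0 and 1 of 21, 0 and 1 of 25, 0 and 1 of 21 and 3 and 0 of 24 in the same order. Median ratios over the listed genes lay between 0.859 and 1.14, beside 0.821 to 1.04 over all genes in the same comparisons. Against 6 M DTR the higher and lower counts in 21 M B6 were 3 and 1 of 22 in tenocytes (median 1.25 against 0.782), 3 and 0 of 21 in epitenon cells (1.03 against 0.827), 0 and 0 of 25 in macrophages (1.02 against 0.956) and 2 and 2 of 20 in endothelial cells (1.37 against 0.923), where the shares of all genes past 2-fold are those given above.

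Few UMIs came from the interferons themselves. Ifnb1 (interferon beta) gave 71 UMIs in 6 of 533 macrophages, 34 UMIs in 3 of 1077 and 14 UMIs in 6 of 469. Ifng (interferon gamma) gave 3, 33 and 0 UMIs in T or NK cells, from 1, 14 and 0 of 115, 302 and 68 cells. The 0 in 68 cells allows up to 4.20 CPM, taken as 3 UMIs of the total. No UMI of Ifna4, Ifnl2 or Ifnl3 was found in any kept cell. Over all kept cells Ifnb1 had 108, 105 and 36 UMIs and Ifng 5, 68 and 0, out of 113520862, 85926015 and 65736291 UMIs in total. With so few UMIs, and classes of unlike size in the 3 libraries, these counts do not rank the libraries.

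Receptor levels are given over all kept cells, of which tenocytes made up 57.6%, 40.3% and 15.8%, and the part of class makeup in the differences was not tested. Ifnar1 stood at 30.2, 35.9 and 23.6 CPM, Ifnar2 at 98.7, 94.6 and 74.3 CPM, Ifngr1 at 129, 143 and 97.8 CPM, Ifngr2 at 46.2, 43.4 and 25.6 CPM and Il10rb at 30.9, 43.7 and 30.4 CPM, and the interferon lambda receptor Ifnlr1 had 14, 3 and 2 UMIs. Within tenocytes Ifnar1 stood at 25.4, 28.9 and 17.1 CPM and Ifngr2 at 47.3, 34.1 and 27.7 CPM, beside a median ratio of 0.821 over all genes between 21 M B6 and 6 M WT. Downstream of the receptors and again over all kept cells, Stat2 stood at 18.9, 15.4 and 39.7 CPM and Irf9 at 22.0, 15.8 and 41.6 CPM. Among the inhibitors, Socs3, which also answers cytokines of the interleukin 6 family, was 2.66 times its 6 M WT level in 21 M B6 tenocytes (295 and 786 CPM) and 3.69 times in epitenon cells (116 and 427 CPM), and Socs1 3.15 times in endothelial cells (18.9 and 59.4 CPM).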

How the data were processed

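Droplet libraries (3′ kit, version 3) were made from 3 pools of FDL tendons. The deposited files hold UMI counts per gene and barcode. They were made by the authors with Cell Ranger, version 2.1.1 per the labels and 6.0.1 per the file headers, while no build or annotation is named (not given in the sources used here). Kept cells had 1000 to 5000 genes detected and no more than 10% of counts from mitochondrial genes. The 3 libraries held 148149903, 123918145 and 92707026 UMIs in 15536, 16099 and 12273 barcodes. Classes were assigned from marker lists, where a cell needed at least 3 markers and a second class scoring over 0.5 of the first made it mixed. No doublet caller was run, and 1149, 723 and 664 mixed and 279, 268 and 222 unassigned cells were left out of classes.

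UMIs were summed per class and library and divided by the total to give CPM, with exact Poisson intervals, and ratios have exact conditional binomial intervals. A gene at 0 was set to 3 counts for a ratio. Shares were taken after thinning each cell to 2000 UMIs. Members named by rule are those at 20 CPM or more and past 2-fold against 6 M WT, the 3 with the highest CPM per class and those under 3 UMIs (there were 0), and non-members are the 10 with the largest ratio in high cells at 50 CPM or more. Other members are named where a count of 5 or fewer, a relative of a named gene, or entry over the 5 CPM minimum through 1 library called for it, after their values were seen. The members and lists were chosen with earlier results of these data known. CPM was not divided by transcript length, so an order of genes is an order of UMIs. Alternatives covered cell filters, class limits, sex, scaling, CPM minimum, fold and thinning. Scripts were tested on simulated data. Python 3.11.15, numpy 2.4.6, scipy 1.17.1, pandas 2.3.3, matplotlib 3.10.9 and, for TMM factors only, edgeR 4.0.16 in R 4.3.3 were used. One pathway gene is not reported here.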

Additional observations from a re-analysis of the deposited data

Results flagged for a closer look

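Trim30a, a ubiquitin ligase of the interferon response, differed between 6 M DTR and 6 M WT in opposite directions in 2 cell classes. The ratio was 2.11 in epitenon cells and 0.480 in endothelial cells. Over the alternatives it lay between 1.38 and 4.61 in epitenon cells, with 1.93 when mixed cells were kept, 1.38 in female cells and 1.68 on thinned sums, and between 0.249 and 0.570 in endothelial cells. The difference between the classes was not tested, since there was 1 library per group. In epitenon cells the values rest on 69 and 147 UMIs (4.20 CPM in 6 M WT, 8.84 in 6 M DTR). Trim30a thus passed the 5 CPM minimum there through 6 M DTR alone. In endothelial cells the values rest on 102 and 55 UMIs, and 19.9% of the 50-base words at the 3′ end of Trim30a also occur in Trim30d, so its counts are uncertain.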

How the results depend on the processing

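No paired analysis was possible because each group had 1 library, and for the same reason no library could be left out. Over the alternatives, 14 to 21 tenocyte and 10 to 26 epitenon members were at least 2-fold higher in 21 M B6 than in 6 M WT, and in tenocytes 0 were 2-fold lower. Of the recomputed ratios of named members 406 stayed within their counting interval. A further 151 moved beyond it without crossing 1, among them Isg15 in 21 M B6 T or NK cells at 1.0. The other 10 changed direction. These were Ifit2 (0.857, limit of 5% mitochondrial counts) and Ifit3b (0.614, male cells) in endothelial cells of 21 M B6, Ifi205 in its macrophages (0.797, male cells) and Irgm1 in its T or NK cells (0.568, limit of 5%), Oas2 in 6 M DTR endothelial cells (1.30, female cells), and in 6 M DTR T or NK cells Rsad2 (0.254 in male cells, 0.889 thinned, 0.776 without high cells) and Cmpk2 (0.355 in male cells, 0.889 thinned). Ifi205 had 173 UMIs in 57 macrophages of 6 M WT and 290 in 48 of 21 M B6, and the others had fewer UMIs. The cause was not tested.

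The counts at least 2-fold higher or lower that changed by over 1.5 times were small for the most part. The share of all genes past the fold was not computed under the alternatives, so their counts have no background beside them. In 6 M DTR tenocytes, 6 lower members became 1 with a minimum of 20 CPM, 12 with none, 12 at 1.5-fold and 3 without high cells. In 6 M DTR epitenon cells, 1 higher member became 0 with mixed cells kept, 0 in female cells, 4 in male cells, 0 with 20 CPM and 2 with no minimum, and 1 lower member became 9 in female cells. In 6 M DTR macrophages, 1 became 2 at 5% mitochondrial counts, 4 in female cells, 6 in male cells, 0 with 20 CPM, 2 with no minimum, 2 thinned, 3 at 1.5-fold and 2 without high cells. In 6 M DTR endothelial cells, 4 lower members became 7 at 5%, 1 with mixed cells kept, 2 in female cells, 2 with TMM, 2 with 20 CPM, 7 thinned and 9 at 1.5-fold. In 6 M DTR T or NK cells, 3 became 5 at 5%, 6 with mixed cells kept, 5 in female cells, 1 with 20 CPM, 6 with no minimum, 8 at 1.5-fold and 1 without high cells.

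For 21 M B6 against 6 M WT, a minimum of 20 CPM left 10 of 18 in epitenon cells, 4 of 10 in macrophages and 2 of 5 in T or NK cells, and 1.5-fold gave 18 in macrophages and 9 in T or NK cells. T or NK cells gave 9 in female cells, 2 in male cells and 2 thinned, and endothelial cells 8 at 5% and 7 without high cells. Against 6 M DTR, 20 CPM left 13 in epitenon cells and 3 in macrophages, 1.5-fold gave 14 in macrophages, a minimum on the mean of the 3 libraries 4 in macrophages, and leaving out high cells 11 in endothelial cells. Shares of high cells, in the order used above, were 1.54%, 1.01% and 5.17% thinned to 4000 UMIs, 4.56%, 3.71% and 14.4% without thinning, 1.39%, 1.10% and 4.90% with at least 3 core members and 0.527%, 0.260% and 1.90% with at least 5. They were 2.40% in female cells of 21 M B6, and in male cells 0.452% in 6 M WT and 3.92% in 21 M B6. The minimum on the mean and the fits without high cells were added after the data were seen. Small classes limit precision, and 15 endothelial cells of 21 M B6 remained at 5%.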

Other observations

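Barcodes left out of the classes held interferon-high cells as well. Values are listed for 6 M WT first and 21 M B6 last. Of those with over 10% mitochondrial counts that could be thinned, 1 of 202 was high, 0 of 359 and 43 of 1210 (3.55%, 2.58 to 4.76). Among barcodes with more than 5000 genes, 3 of 732, 3 of 659 and 4 of 357 were high.

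Mural cells, the pericytes and smooth muscle of small vessels, held the GTPase Ifi47 beside the endothelium. Not all of the family followed. Igtp stood at 12.8, 10.9 and 29.0 CPM and Irgm2 at 11.1, 12.7 and 34.3 CPM in mural cells. Both were higher in endothelial cells and in Schwann cells (Igtp 26.3, 54.5 and 134 CPM, Irgm2 26.3, 40.3 and 151 CPM). Ifi47 stood at 121, 88.5 and 95.1 CPM in mural cells and at 83.7, 68.7 and 158 CPM in endothelial cells, against 0.492, 0.492 and 2.13 CPM in tenocytes. Isg15 was detected in 63.8%, 49.2% and 85.7% of mural cells and in 5.88%, 6.67% and 33.3% of satellite cells, at median depths of 8271, 7755 and 8806 against 10762.5, 8004 and 9476 UMIs.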
